A study of Mus musculus with 8 samples.

Results

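The 9 genes followed here mark microglia or encode the chains of complement C1q, and were measured in RNA from sorted neural stem and progenitor cells (NSPCs) of the mouse cortex. They were Cx3cr1, P2ry12, Tmem119, Csf1r, Trem2, Tyrobp, C1qa, C1qb and C1qc. They were taken by symbol from the authors' deposited comparison table and matched by gene ID to the expression table, which gave 9 of 55385 genes. The study addressed how loss of ASH2L, a core subunit of the histone H3 lysine 4 methyltransferase complexes, affects neurogenesis after birth. Cells were dissociated from the cortex at postnatal day 7 and sorted by flow cytometry, and Smart-Seq2, which copies whole transcripts into cDNA, was used to amplify their RNA. The 4 iKO libraries came from mice with the genotype Nestin-CreERT2; Ash2l f/f; tdTomato. The 4 WT libraries came from Nestin-CreERT2; tdTomato mice, so both groups carried the Cre and the reporter, and the WT mice lacked the floxed allele. CreERT2 is a Cre recombinase that tamoxifen activates, and the Nestin promoter drives it in neural stem and progenitor cells, from which microglia do not descend. The sources used here give neither the schedule of its activation nor the gate of the sort. The libraries are described as biological replicates, but no label ties a library to a single animal, so p-values measure the spread between these libraries, part of which may be technical.

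Microglia are the resident macrophages of the brain. They arise from yolk sac progenitors, need signals through the receptor CSF1R to survive, and watch their surroundings through receptors such as P2RY12, which senses nucleotides, and CX3CR1, which binds the neuronal chemokine CX3CL1. TREM2 binds lipids and lipoproteins and signals through the adaptor TYROBP. C1q, made in the brain mainly by microglia, is built from equal numbers of A, B and C chains and starts the classical complement pathway, which tags synapses for removal during postnatal development.

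Expression was given as TPM, which corrects for transcript length and sets every library to the same total, so levels may be compared between genes. Sequencing depth cannot be read from TPM and is unknown. A library held 16089 to 16616 genes at 1 TPM or more, and 16413 genes with at least 1 TPM in at least 4 libraries were tested. The targeted gene Ash2l averaged 17.6 ± 1.33 TPM over the WT libraries and 7.13 ± 0.714 TPM over the iKO libraries (SD, n = 4 each), with a log2 fold change of -1.20 (limma, adjusted p = 3.82e-06). Each log2 fold change is the iKO less the WT mean of log2(TPM + 1), a scale that understates the change of low genes, and adjusted p-values are Benjamini-Hochberg values over all genes tested. The median log2 fold change of all genes tested was -0.06, against which the values below are to be read.

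The sorted material held transcripts used as markers of its labelled type and of other cell types. Of 12 NSPC markers all 12 passed the filter. Their summed level ran from 3361 to 3443 TPM across iKO libraries and from 3960 to 4038 TPM across WT libraries. By limma, 5 of these markers were lower in iKO, 2 were higher and 5 were not called. The most abundant were Slc1a3, Fabp7 and Hes5, which differed in direction. Slc1a3 fell (log2 fold change -0.72, adjusted p = 1.61e-08) and Fabp7 rose (0.48, adjusted p = 3.06e-07). Hes5 had 0.06 (adjusted p = 0.0864). The lower sum therefore does not hold marker by marker. The 9 microglia and C1q genes summed to between 534 and 549 TPM in the iKO libraries and between 643 and 697 TPM in the WT libraries. In bulk RNA, fewer cells of a type and less RNA per cell cannot be told apart, here and in every result that follows.

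All 9 genes passed the filter. By limma, 7 were lower in iKO, C1qc was higher, and Trem2 did not pass; the call of C1qa did not hold under another scaling. Across all genes tested, 31.9% were called lower, 20.7% higher and 52.6% either way, so changes were common in this comparison. The values of 8 genes did not overlap between groups, 7 with iKO below WT and 1 above. Among all genes tested, 49.2% did not overlap, 29.9% with iKO below and 19.2% above. The median log2 fold change of the 9 genes was -0.57. In the authors' deposited table, which used another normalization of the same libraries, 6 were called lower and 1 higher. Of the 29438 genes with a comparison there, 33.9% were called in either direction. Those genes are a wider set than the 16413 that passed the filter, as all 9 did, so that share is not a like background for the 9.

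**Figure D1:**
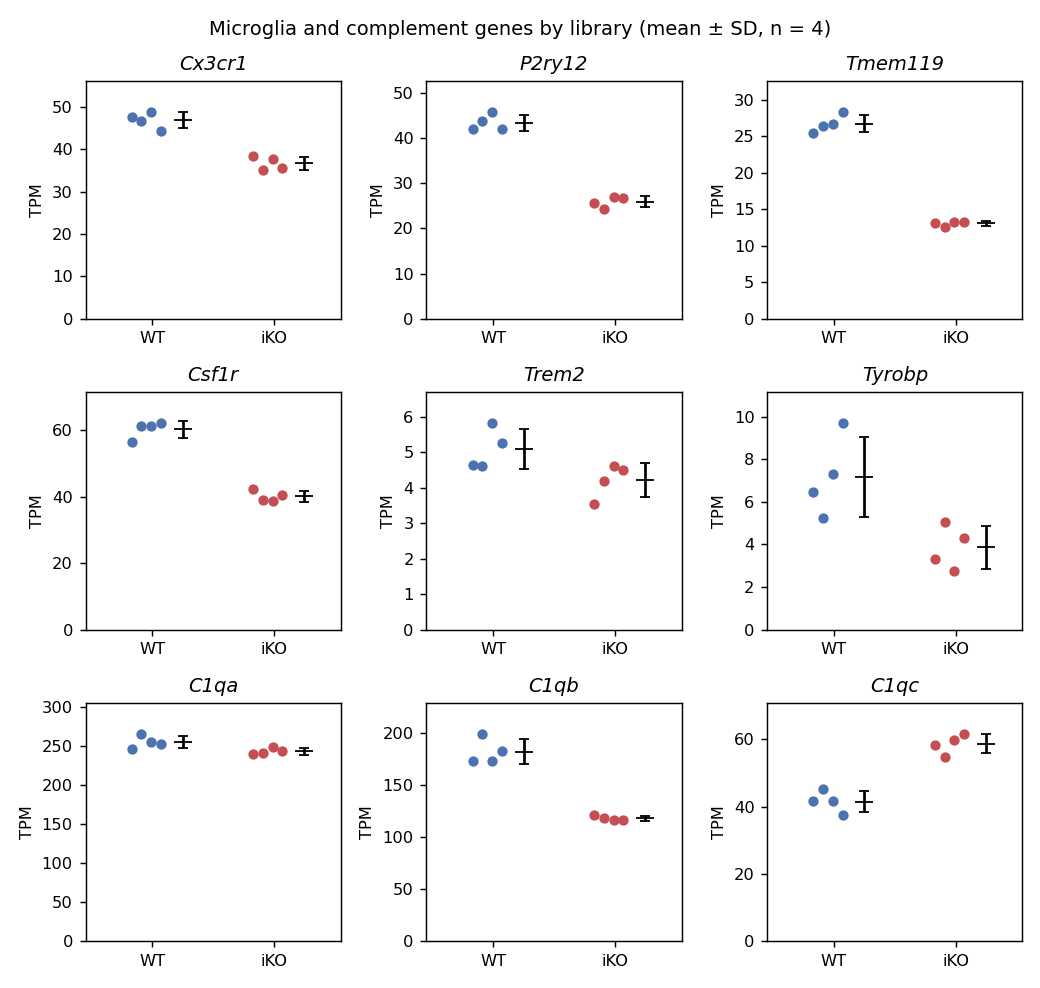
TPM of each of the 9 genes in the 4 WT and 4 iKO libraries, 1 panel per gene with its own axis in TPM; points are libraries, and the line and bar give the mean and SD. The iKO points lie below the WT points for 7 genes, above them for C1qc, and among them for C1qa.

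Y-linked transcripts differed between the groups, and the labels do not give the sex of the animals. The Y-linked genes Ddx3y, Eif2s3y, Kdm5d and Uty summed to 135 to 163 TPM in WT and 53.9 to 73.4 TPM in iKO. A score of these genes less Xist ran from 0.57 to 1.01 in WT and from -0.82 to -0.26 in iKO, so it separated the groups in full. With that score in the fit, 0 of the 9 genes passed. Tmem119 then had a log2 fold change of -0.73 (limma, adjusted p = 0.0597). C1qc had 0.64 (limma, adjusted p = 0.215), further from 0 than the 0.49 without the score, so its lost call was not a smaller change. The loss was not particular to the 9, since calls among 28 other microglia genes went from 15 to 1. The share of all genes called with the score is not given here. Whether the sexes were mixed unequally or the Y-linked genes changed with genotype was not tested. The score and genotype cannot be told apart here.

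Tmem119 (ENSMUSG00000054675.5), a transmembrane protein used as a marker of resident microglia, had the largest fall of the 9. Its level was 25.5, 26.4, 26.7 and 28.3 TPM in WT libraries 1 to 4, and 13.05, 12.6, 13.2 and 13.3 TPM in iKO libraries 1 to 4. The groups stood far apart, and the iKO libraries lay close together. The iKO mean was 48.8% of the WT mean (13.03 ± 0.317 against 26.7 ± 1.17 TPM, SD, n = 4 each), with a log2 fold change of -0.98 (SE 0.0441, limma, adjusted p = 3.82e-07). In the authors' deposited table the log2 fold change was -0.96.

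P2ry12 (ENSMUSG00000036353.13) encodes the purinergic receptor by which microglial processes are drawn to ADP and ATP. WT libraries 1 to 4 held 41.9, 43.8, 45.8 and 42.1 TPM of P2ry12, and iKO libraries 1 to 4 held 25.7, 24.2, 27.0 and 26.8 TPM. Every iKO library lay below every WT library. On average iKO held 59.8% of the WT level, and the log2 fold change was -0.72 (SE 0.0469, limma, adjusted p = 3.38e-06).

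Csf1r (ENSMUSG00000024621.16) encodes the receptor for CSF1 and IL-34. In WT libraries 1 to 4 it stood at 56.3, 61.3, 61.1 and 62.1 TPM, and in iKO libraries 1 to 4 at 42.3, 39.1, 38.6 and 40.6 TPM. The groups did not overlap, and WT library 1 was the lowest of its group. The mean fell to 66.7% of WT, a log2 fold change of -0.57 (SE 0.0434, limma, adjusted p = 8.24e-06).

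Cx3cr1 (ENSMUSG00000052336.7), the fractalkine receptor, fell less. Its WT levels were 47.6, 46.6, 48.8 and 44.3 TPM and its iKO levels were 38.3, 35.2, 37.7 and 35.7 TPM, in the order of libraries 1 to 4. The lowest WT library lay above the highest iKO library. The iKO mean was 78.5% of WT, with a log2 fold change of -0.34 (SE 0.0431, limma, adjusted p = 0.000187).

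The receptors did not move by equal amounts. The ratio of Csf1r to Cx3cr1 was 1.18 to 1.40 in WT and 1.02 to 1.14 in iKO. That difference was -0.23 log2 units (exact permutation test, two-sided, p = 0.0286, adjusted over 6 ratios 0.0343). Ratios were tested as differences of log2(TPM + 1) within a library, for 6 pairs, and 0.0286 is the smallest p that 4 against 4 libraries can give. With any 1 of the iKO libraries left out, the adjusted p of Csf1r to Cx3cr1 rose to between 0.0571 and 0.0686, with the difference between -0.27 and -0.19 whichever library was left out. The ratio of P2ry12 to Tmem119 was 1.49 to 1.72 in WT and 1.93 to 2.04 in iKO, a difference of 0.26 log2 units (exact permutation test, adjusted p = 0.0343). Tmem119 therefore lost more of its level than P2ry12.

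Trem2 and Tyrobp, the lipid receptor and its signalling adaptor, had the lowest levels of the 9 genes. Trem2 (ENSMUSG00000023992.14) was at 4.65, 4.62, 5.82 and 5.26 TPM in WT libraries 1 to 4 and at 3.54, 4.18, 4.61 and 4.50 TPM in iKO libraries 1 to 4. The groups nearly touched but did not overlap, since the highest iKO library lay just under the lowest WT library. The log2 fold change of -0.23 (95% interval -0.44 to -0.01) did not pass (SE 0.0956, limma, adjusted p = 0.0764), and the authors' deposited table gave -0.27 with an adjusted p of 0.291.

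Tyrobp (ENSMUSG00000030579.10) stood at 6.48, 5.22, 7.28 and 9.69 TPM in WT libraries 1 to 4 and at 3.33, 5.04, 2.75 and 4.32 TPM in iKO libraries 1 to 4. Its spread was wide in both groups, and iKO library 2 came close to WT library 2. Its mean was 53.8% of WT, with a log2 fold change of -0.75 (SE 0.192, limma, adjusted p = 0.0103). The ratio of Trem2 to Tyrobp ran from 0.543 to 0.884 in WT and from 0.83 to 1.68 in iKO. These ranges overlapped, and the difference of 0.52 log2 units did not pass (exact permutation test, adjusted p = 0.0571), though it did without iKO library 2 (adjusted p = 0.0343). Unequal change of the receptor and its adaptor was therefore not shown at this spread.

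**Figure D2:**
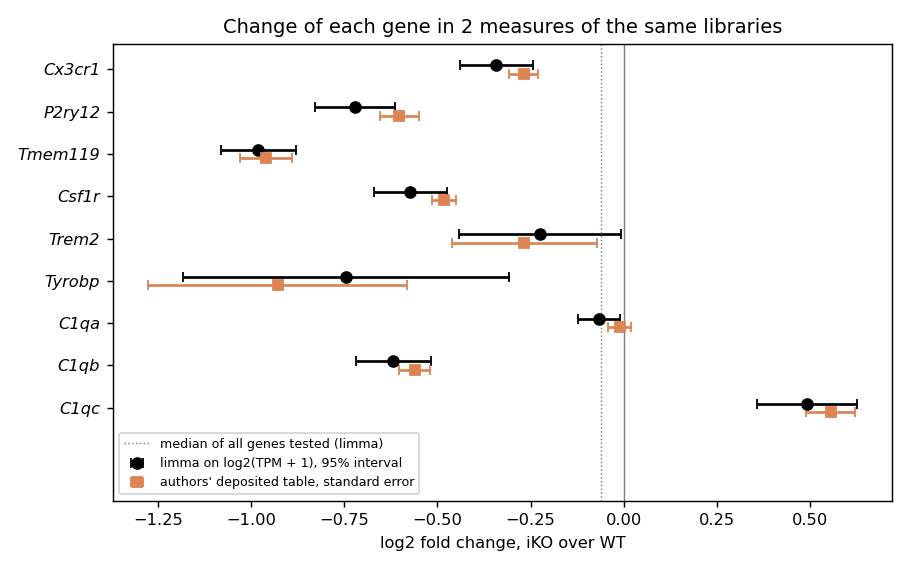
Log2 fold change of log2(TPM + 1), iKO minus WT, of each of the 9 genes, as circles with limma's 95% interval, beside the log2 fold change in the authors' deposited table as squares with its standard error; the dotted line marks the median of all genes tested. Tmem119 lies lowest at -0.98, C1qc lies above 0 at 0.49, and C1qa lies at the median of all genes.

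The 3 C1q genes did not move together. C1qb (ENSMUSG00000036905.8), the B chain, was at 173, 198, 173 and 182 TPM in WT libraries 1 to 4 and at 121, 118, 116 and 116 TPM in iKO libraries 1 to 4. All iKO libraries lay well below all WT libraries. The iKO mean was 64.9% of WT, with a log2 fold change of -0.62 (SE 0.0440, limma, adjusted p = 5.6e-06).

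C1qc (ENSMUSG00000036896.5), the C chain, went the other way. WT libraries 1 to 4 held 41.7, 45.2, 41.6 and 37.5 TPM of C1qc, and iKO libraries 1 to 4 held 58.3, 54.9, 60.0 and 61.5 TPM. Every iKO library lay above every WT library. The iKO mean was 141% of WT, with a log2 fold change of 0.49 (SE 0.0588, limma, adjusted p = 0.000137), and the authors' deposited table gave 0.55 with an adjusted p of 4.76e-16.

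C1qa (ENSMUSG00000036887.5), the A chain, had the highest level of the 9 genes and hardly differed. It was at 247, 265, 255 and 253 TPM in WT libraries 1 to 4 and at 240, 241, 249 and 244 TPM in iKO libraries 1 to 4. The groups overlapped, since iKO library 3 lay above WT library 1. The log2 fold change was -0.07 (SE 0.0247, limma, adjusted p = 0.0460), about the median of all genes tested. Under trimmed mean of M values scaling it was 0.00 with an adjusted p of 0.925, and in the authors' deposited table it was -0.01 with an adjusted p of 0.809. The call also ended without any 1 of iKO libraries 1, 2 or 4 or WT libraries 2, 3 or 4, with adjusted p between 0.0716 and 0.105.

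Because the chains are joined in equal numbers in the protein, their shares of summed C1q RNA were compared. In WT, C1qa held 53.4 ± 0.917%, C1qb 37.9 ± 0.996% and C1qc 8.68 ± 0.509% of the summed TPM (SD, n = 4). In iKO, C1qa held 58.0 ± 0.557%, C1qb 28.1 ± 0.761% and C1qc 14.0 ± 0.567% (SD, n = 4). The share of C1qb was thus lower and those of C1qc and C1qa were higher in every iKO library. The summed level of the 3 chains was 461 to 509 TPM in WT and 414 to 425 TPM in iKO.

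The ratios of the chains show the same values pair by pair. C1qb to C1qc was 4.14 to 4.86 in WT and 1.88 to 2.16 in iKO, a difference of -1.11 log2 units (exact permutation test, adjusted p = 0.0343). C1qa to C1qb was 1.34 to 1.48 in WT and 1.99 to 2.15 in iKO, a difference of 0.55 log2 units (exact permutation test, adjusted p = 0.0343). C1qa to C1qc was 5.87 to 6.76 in WT and 3.96 to 4.39 in iKO, a difference of -0.56 log2 units (exact permutation test, adjusted p = 0.0343). A ratio of TPM values does not depend on how the library total was scaled.

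**Figure D3:**
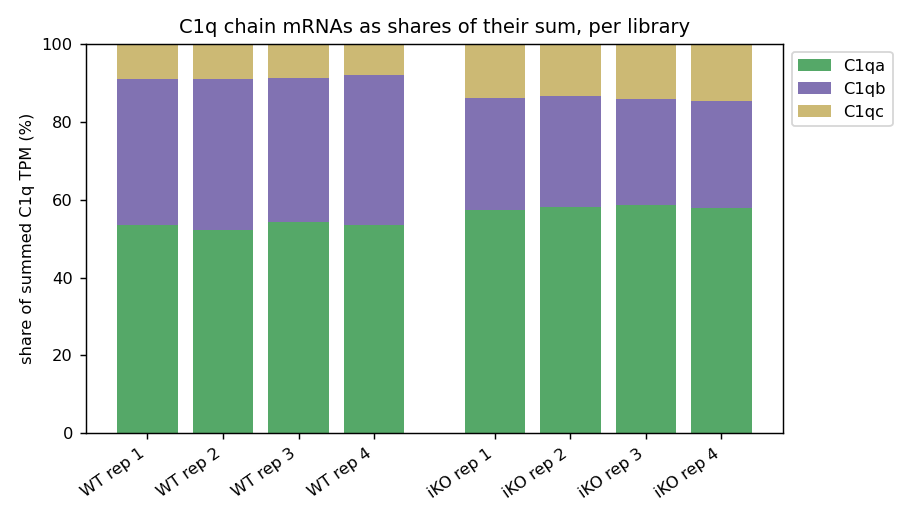
Share of the summed TPM of C1qa, C1qb and C1qc held by each chain, in percent, in each of the 4 WT and 4 iKO libraries. C1qb holds 36.8% to 39.0% in WT and 27.3% to 28.8% in iKO, and C1qc holds 7.92% to 9.05% in WT and 13.2% to 14.6% in iKO.

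Markers of other cells that could carry these transcripts also differed. Border-associated macrophages of the meninges and vessels share Csf1r, Cx3cr1, Tyrobp and the C1q genes with microglia. Of 13 of their markers 11 were tested, 5 fell, 3 rose and 3 did not pass, with summed levels of 140 to 154 TPM in WT and 157 to 175 TPM in iKO. The most abundant of these were Cbr2, which rose from 6.85 ± 1.13 to 40.7 ± 3.97 TPM (log2 fold change 2.42, adjusted p = 4.33e-07), Stab1 and Dab2, neither of which passed by limma. The authors' deposited table called both higher, Dab2 with a log2 fold change of 0.23 (adjusted p = 1.6e-07) and Stab1 with 0.14 (adjusted p = 0.0341), and Dab2 also passed without the length and GC trend (adjusted p = 0.0385). Mrc1, Cd163, Lyve1 and F13a1, named after their values were seen, fell with log2 fold changes of -0.74, -1.84, -1.19 and -1.28 (limma, adjusted p between 1.61e-06 and 0.000351). The mean of Cbr2 rose by more than the summed level did, so the higher sum does not give the direction of the other markers. These macrophage markers therefore split in direction, and their part in the results was not tested.

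C1qb, C1qc and C1qa lie next to each other in that order on chromosome 4, on 1 strand, between the lncRNA gene Gm31536 and Epha8 in RefSeq's annotation of GRCm38.p6. The upstream stretches of C1qb and C1qc are shown because these neighbours moved in opposite directions, and that of P2ry12 because it is a receptor gene that fell. Capitals mark GAGGAA or its reverse complement TTCCTC, the PU box that the myeloid factor PU.1 (gene Spi1) binds; it was the motif searched, on both strands. The sequences are RefSeq's, 5′ to 3′ on the gene's strand; that of C1qc ends before the earliest start that GENCODE annotates, which left 99 bases.
C1qb, chr4:136886201-136886450, minus strand: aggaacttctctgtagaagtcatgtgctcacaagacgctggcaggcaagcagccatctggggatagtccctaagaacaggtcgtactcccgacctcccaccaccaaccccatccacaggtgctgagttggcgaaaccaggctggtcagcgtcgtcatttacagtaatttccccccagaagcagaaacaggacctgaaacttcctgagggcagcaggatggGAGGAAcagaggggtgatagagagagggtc
C1qc, chr4:136893066-136893164, minus strand: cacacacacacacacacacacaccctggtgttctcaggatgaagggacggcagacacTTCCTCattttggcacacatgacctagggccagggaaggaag
P2ry12, chr3:59262986-59263235, minus strand: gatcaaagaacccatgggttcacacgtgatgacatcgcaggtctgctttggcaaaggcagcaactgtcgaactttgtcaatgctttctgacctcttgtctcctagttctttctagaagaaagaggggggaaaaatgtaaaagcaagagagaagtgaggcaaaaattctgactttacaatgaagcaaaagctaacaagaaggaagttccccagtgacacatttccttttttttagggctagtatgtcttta
C1qb holds 1 match on the gene's strand, C1qc 1 on the opposite strand, and P2ry12 none. Of the 5 genes present in the promoter table, C1qb, C1qc and Trem2 held a match in the 250 bases before the start, as did 23.1% of the 27025 promoters of that length. A match is a run of letters and not a measured site.

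Ordered by level, C1qa and C1qb led in both groups. In WT they were followed by Csf1r, by Cx3cr1, P2ry12 and C1qc with overlapping ranges between neighbours, by Tmem119, and by Tyrobp and Trem2, whose ranges overlapped. In iKO, C1qc followed C1qb and stood above Csf1r, Cx3cr1, P2ry12 and Tmem119, and none of these neighbours overlapped. Trem2 and Tyrobp were again last, with overlapping ranges.

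Within groups the 9 genes varied little together. Over 8 libraries, after the group mean was removed, the Pearson correlation of log2(TPM + 1) between 2 of them had a median of 0.18 over 36 pairs and ran from -0.79 to 0.62. Among 11619 genes with a mean of at least 5 TPM, those whose deviations were most like the mean deviation of the 9 were 5930409G06Rik (r = 0.981), Trim36 (0.966), Zfp672 (0.960), Herpud1 (0.956), Exosc1 (0.951), Pacsin1 (0.950), Uqcc3 (0.950) and Fam234b (0.948). All points share their libraries and their scaling to 1000000, and the best of many genes is high by selection, so these values are a description.

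Among 28 other genes of microglia, all tested, 10 fell and 5 rose, while 13 did not pass; the median log2 fold change was -0.09 beside -0.06 for all genes. Laptm5, a lysosomal membrane protein of haematopoietic cells, fell from 46.3 ± 1.5 to 23.5 ± 1.46 TPM (SD, n = 4; log2 fold change -0.95, adjusted p = 8.96e-07). Siglech, a sialic acid binding receptor of microglia, fell from 10.1 ± 0.293 to 5.86 ± 0.160 TPM (log2 fold change -0.70, adjusted p = 5.4e-06). Adgrg1, an adhesion receptor that neural progenitors express too, fell from 315 ± 4.96 to 245 ± 4.71 TPM.

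Fcrls, an Fc receptor-like gene of mouse microglia, rose from 25.4 ± 0.148 to 53.4 ± 2.72 TPM (log2 fold change 1.04, adjusted p = 1.76e-07), a direction opposite to Tmem119 and P2ry12. The other genes that rose were Olfml3, Cd68, Spi1 and Sall1, named after their values were seen. Sall1, also a gene of neural progenitors, lost its call with any 1 library other than WT library 2 left out, with adjusted p between 0.0553 and 0.0976. Spi1, which encodes PU.1, was at 7.24 ± 1.17 TPM in WT and 10.5 ± 1.63 TPM in iKO (log2 fold change 0.48, adjusted p = 0.0134), and in the authors' deposited table its log2 fold change was 0.31 (adjusted p = 0.0605). Markers shared by microglia and other macrophages were mixed, with Cd68 higher (21.9 ± 4.27 to 37.7 ± 4.65 TPM) and Ctss lower (45.8 ± 3.39 to 25.4 ± 1.83 TPM).

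A list of 8 genes was drawn up for ligands of these receptors and other factors that act on microglia. Of the 7 tested, 5 fell, Anxa3 rose and Il34 did not pass, with a median of -0.29. Whether Anxa3 is such a ligand or factor was not checked. The authors' deposited table called all 7, with 6 lower and 1 higher. There Il34, a ligand of CSF1R, had a log2 fold change of -0.60 (adjusted p = 7.79e-05), against -0.31 by limma (adjusted p = 0.0957). Apoe, a lipoprotein that TREM2 binds and that astrocytes make, fell from 9530 ± 119 to 7459 ± 178 TPM (log2 fold change -0.35, adjusted p = 5.39e-07). Clu, another lipoprotein ligand, fell from 2041 ± 39.8 to 1429 ± 22.3 TPM (log2 fold change -0.51, adjusted p = 6.72e-08). Cx3cl1, the ligand of CX3CR1, fell from 23.2 ± 1.03 to 18.8 ± 0.670 TPM (log2 fold change -0.29, adjusted p = 0.000715). Gas6, which binds the receptor AXL, fell by 0.27 log2 units (adjusted p = 0.00041). The ligand and the receptor of the CX3CL1 pair were thus both lower. Astrocyte markers moved the same way, with 6 of 8 lower, 1 higher and summed levels of 4512 to 4682 TPM in WT and 2943 to 3081 TPM in iKO, and their part in the result was not tested.

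Signalling partners of TREM2 and TYROBP changed in both directions. Of 12 genes 11 were tested: 2 rose, 2 fell, 7 did not pass, and the median was -0.00. The split was 4 higher and 1 lower with quantile normalization, and 4 higher and 2 lower in the authors' deposited table. Syk, the kinase that TYROBP recruits, fell from 2.95 ± 0.124 to 1.36 ± 0.197 TPM (log2 fold change -0.74, adjusted p = 0.000119). Blnk, an adaptor downstream of Syk, rose from 3.14 ± 0.516 to 4.70 ± 0.353 TPM (log2 fold change 0.47, adjusted p = 0.00357), and Inpp5d, a phosphatase that opposes this signal, rose by 0.21 log2 units (adjusted p = 0.00651). Vav1, an exchange factor, fell by 0.27 log2 units (adjusted p = 0.0203), a call that ended without iKO library 2 (0.0541), iKO library 3 (0.0506) or WT library 3 (0.0552), and in the authors' deposited table (0.0841).

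Among partners of CSF1R and CX3CR1 the direction of the calls turned with the scaling. Of 10 genes 9 were tested; Gnai2 rose, Sos1 and Lyn fell, 6 did not pass, and the median was -0.06. With trimmed mean of M values scaling, without the length and GC trend, and in the authors' deposited table, 3 were higher and 0 lower, and with quantile normalization 2 were higher and 0 lower. The calls of Sos1 and Lyn ended under these settings, while Rac2 passed as higher in all of them and Grb2 in all but quantile normalization; Sos1, Lyn and Grb2 are named after their values were seen. Gnai2, the inhibitory G protein subunit used by chemokine and purinergic receptors and common to many cells, rose from 49.4 ± 0.759 to 57.6 ± 1.63 TPM (log2 fold change 0.22, adjusted p = 0.000389).

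Beyond C1q, 9 of 19 complement activation genes reached the filter, of which 5 fell and C1s1 rose, and 3 did not pass; the median was -0.46. The other 10 lay below the filter, with C9 and Cfd listed at 0 in every library. C3, the central component, was one of them, at 0.0954 ± 0.0277 TPM in WT and 0.0514 ± 0.0178 TPM in iKO (SD, n = 4). C4b, the substrate of the C1 complex, fell from 35.1 ± 2.08 to 23.4 ± 0.689 TPM (log2 fold change -0.56, adjusted p = 1.82e-05). In the authors' deposited table the log2 fold change of C4b was -0.38. C4a is a near-identical copy of C4b, with a value of -0.92 (adjusted p = 0.00695, and in the authors' deposited table -0.53 with 0.0916). The values of C4a and C4b are both uncertain because reads may be split between them. Masp1, a protease of the lectin pathway, fell from 23.4 ± 0.947 to 16.4 ± 0.748 TPM (adjusted p = 3.97e-05), and Cfp, properdin of the alternative pathway, fell from 12.1 ± 1.22 to 7.74 ± 0.824 TPM (adjusted p = 0.000572).

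Among 17 complement regulators 15 were tested: 8 fell, 4 rose, 3 did not pass, and the median was -0.35. Csmd1 and Csmd2, large membrane proteins with complement control domains that neurons and glia express, fell by 0.56 and 0.58 log2 units (adjusted p = 4.26e-05 and 5.32e-06). C1qbp, named for binding C1q but mainly a mitochondrial matrix protein, rose from 133 ± 3.07 to 188 ± 10.7 TPM (log2 fold change 0.50, adjusted p = 1.21e-05).

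Of 11 complement receptor genes 7 were tested; Cd93 rose, 3 fell, 3 did not pass, and the median was -0.17. C5ar1, the C5a receptor, fell from 7.05 ± 0.796 to 4.04 ± 0.683 TPM (log2 fold change -0.68, adjusted p = 0.00119). Cd93, first described as a C1q receptor and high in endothelium, rose from 4.92 ± 0.203 to 9.10 ± 0.384 TPM (log2 fold change 0.77, adjusted p = 6.3e-06). All 8 endothelial markers rose too, and their summed levels were 437 to 449 TPM in WT and 777 to 820 TPM in iKO; their part in the rise of Cd93 was not tested. Lrp1, an endocytic receptor of many cells, fell by 0.33 log2 units (adjusted p = 6.95e-05), and in the authors' deposited table the change was smaller, at -0.11.

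Genes of axon tract and disease-associated microglia, the states with more phagocytic and lipid genes, did not move as a block. Of 15 genes 14 were tested. Of these, 6 fell, 5 rose, 3 did not pass, and the median was -0.06. The authors' deposited table called 7 of the 14 higher and 6 lower. Itgax, which lay below the filter and is named after its values were seen, had a log2 fold change of 1.83 there (adjusted p = 1.16e-06). Spp1, osteopontin, rose from 95.5 ± 3.22 to 284 ± 4.28 TPM (log2 fold change 1.56, adjusted p = 1.91e-09). Gpnmb, a lysosomal glycoprotein, rose from 13.6 ± 0.546 to 26.4 ± 0.824 TPM (log2 fold change 0.91, adjusted p = 5.56e-07), and Fabp5, a fatty acid binding protein also made by neural progenitors, rose by 0.44 log2 units (adjusted p = 7.16e-07). Cd9, a tetraspanin of many cells, fell from 1778 ± 26.7 to 1433 ± 36.8 TPM (adjusted p = 2.65e-06). Clec7a, a pattern recognition receptor named after its values were seen, rose from 3.18 ± 0.735 to 7.51 ± 1.71 TPM (log2 fold change 1.02, adjusted p = 0.000768).

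**Figure D4:**
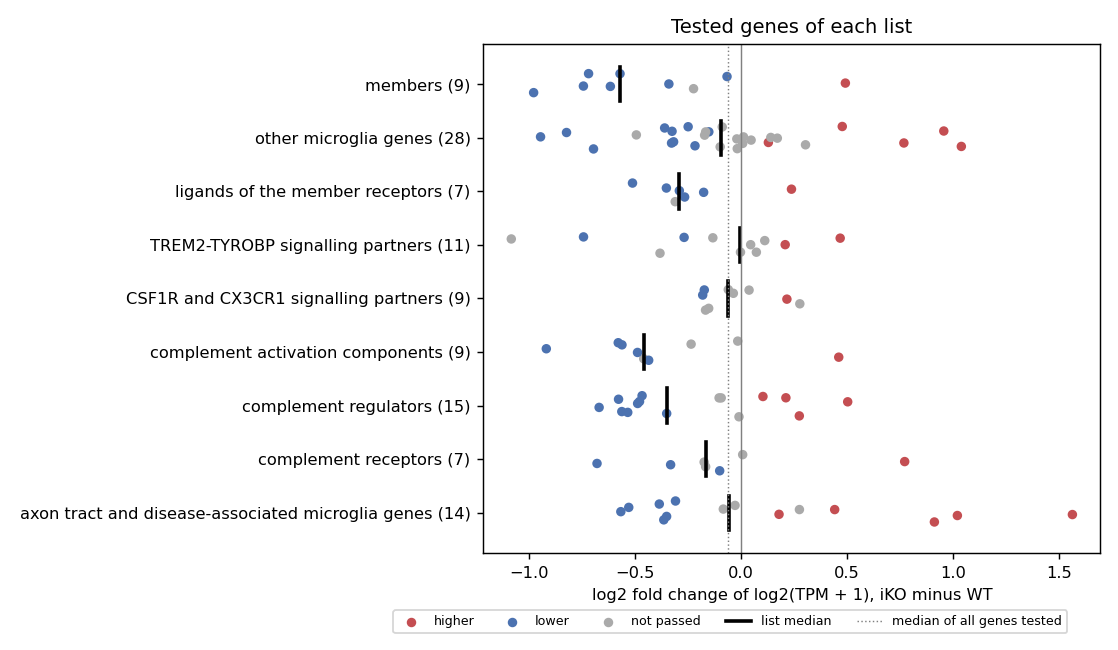
Log2 fold change of log2(TPM + 1), iKO minus WT, of the tested genes of each list, with the number tested in brackets; red points passed as higher, blue as lower and grey did not pass, the black bar is the list's median and the dotted line the median of all genes tested. The 9 microglia and C1q genes have a median of -0.57, complement activation genes -0.46 and other microglia genes -0.09.

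Red blood cell, neutrophil and mast cell markers were higher in iKO. Of 6 red blood cell genes 5 were tested and all 5 rose, with summed levels of 69.9 to 81.0 TPM in WT and 720 to 840 TPM in iKO. All 5 tested of 7 neutrophil genes rose (8.24 to 17.1 TPM in WT, 26.4 to 35.2 TPM in iKO), with Ly6g listed at 0. The call of Ltf ended without iKO library 2 (limma, adjusted p = 0.0662), 3 (0.0546) or 4 (0.0697) and with no filter (0.0506). S100a8 was not called in the authors' deposited table (adjusted p = 0.124). Of 6 mast cell genes 5 were tested and 4 rose (20.2 to 24.4 TPM in WT, 79.6 to 90.4 TPM in iKO). Monocyte genes summed to 84.1 to 93.5 TPM in WT and 73.5 to 75.4 TPM in iKO. Of 4 tested, Vcan fell, Ccr2, named after its values were seen, rose, and 2 did not pass. In the authors' deposited table Vcan had the highest mean signal of the list and a log2 fold change of -0.23. Ccr2 had 1.33 there (adjusted p = 3.61e-07), so the lower sum does not give the direction of each gene. Of 8 lymphocyte genes 2 were tested, 1 fell, and Cd3e was listed at 0. The part of blood cell RNA in the results was not tested.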

How the data were processed

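The members and gene lists were chosen with earlier results of these data known. Samples were grouped by the genotype and replicate in their titles, and 0 columns could not be matched to a sample. The authors deposited TPM, which summed to 1000000 in each library, so depth, and the precision it would give, is unknown. A second table holds the authors' own comparison, iKO over WT, with headings that DESeq2 writes, per the file headers. It gives a mean normalized signal, deposited by the authors. Its log2 fold change, with a standard error and a test score, and its p-value, unadjusted and adjusted, were likewise computed by the authors, per the file headers. Which aligner, quantifier, annotation and build they used is not given in the sources used here.

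From the TPM, log2(TPM + 1) was fitted with limma 3.58.1 (trend, robust) in R 4.3.3 over 16413 genes with at least 1 TPM in at least 4 libraries. Calls needed a Benjamini-Hochberg adjusted p (two-sided) under 0.05; every adjusted p with no other test named is from this fit. Ratios were tested by exact two-sided permutation over 70 assignments. The procedure was tested on simulated data. Genes named were the 9 members, up to 4 genes per pathway list with the smallest p, up to 3 per cell type list with the highest level, Ash2l, and the 8 most alike within groups; a few others, such as C3, Ctss and Clec7a, were named after their values were seen, and some genes that meet the rule are left out; a regulator gene is not reported here. The alternatives tried were a replicate block, omission of each library, no filter, a filter at a mean of 5 TPM, a pseudocount of 0.1 or 5, quantile normalization, scaling by trimmed means of M values, array quality weights, the sex score as covariate, the authors' comparison and, chosen after seeing the data, removal of a length and GC trend (loess, span 0.3, lengths from GENCODE M21, which held 99.6% of the IDs). Promoters came from RefSeq's GRCm38.p6 and were matched by symbol for 5 of 9 members. Figures were drawn with matplotlib 3.10.9.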

Additional observations from a re-analysis of the deposited data

How the results depend on the processing

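The limits are the unknown depth, 4 libraries a group and a Y-linked gene score that follows genotype. Of the settings other than the sex score, none turned the direction of Cx3cr1, P2ry12, Tmem119, Csf1r, Trem2, Tyrobp, C1qb or C1qc. With that score as covariate, the calls fell to 0 of the 9 genes, 1 of the other microglia genes, 1 ligand gene, 0 in each of the TREM2-TYROBP, CSF1R-CX3CR1, complement activation, regulator and receptor lists, and 2 axon tract and disease-associated genes; Trem2 (0.0146) and C1qa (0.0305) then changed sign. C1qa also did so under trimmed mean of M values scaling (0.00286). The median log2 fold change of the 9 genes, -0.57, became -0.45 with a pseudocount of 5, -0.50 with trimmed mean of M values, -0.43 with the sex score, -0.47 without the length and GC trend, and -0.48 in the authors' table. A mean of at least 5 TPM kept fewer genes in the fit. It left 2 calls among 3 TREM2-TYROBP partners, against 4 among 11. Among complement activation genes it left 3 calls among 4, against 6 among 9. The share of higher among all called genes was 39.3%, against 51.1% with trimmed mean of M values, 49.7% with quantile normalization and 53.4% without the length and GC trend, which brought the median of all genes to 0.00, 0.00 and 0.02. Leaving out each library in turn left 7 to 8 of the 9 called and a median of -0.60 to -0.55. The difference in log2 ratio then ran from -0.27 to -0.19 for Csf1r to Cx3cr1 (adjusted p 0.0343 to 0.0686) and from 0.37 to 0.63 for Trem2 to Tyrobp (0.0343 to 0.114). No label says that the replicate numbers pair the libraries. Correlations of same-numbered deviations were -0.03, -0.04, -0.04 and 0.00, which show no shared variation but cannot exclude a pairing by design. With the replicate number as a block, 8 of 9 genes were called, Trem2 passing (adjusted p = 0.048) and C1qa not (0.0642). As paired differences, the ratios of C1qa to C1qb (0.55), C1qa to C1qc (-0.56), C1qb to C1qc (-1.11), Csf1r to Cx3cr1 (-0.23) and P2ry12 to Tmem119 (0.26) had an adjusted p of 0.15, since exact sign flips of 4 pairs cannot go below 0.125.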
